A study of Mus musculus with 15 samples.

Results

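The miRNA precursors counted in small RNA libraries of mouse sperm are described here. They are the 164 entries of the deposited table whose names carry the mouse miRNA prefix, out of 215 entries in all, the rest being 47 transfer RNA fragments (tRFs) and 4 mature tRNA entries. The study asked whether paternal obesity changes the small RNA load of sperm in fathers (F0) and in their sons (F1). All males were C57BL/6 mice by their labels, and of the C57BL/6NTac strain by the study's methods. CO F0 males ate the control diet, and OID F0 males an obesity-inducing diet rich in lard, for 7 weeks, from 3 weeks of age to mating at 10 weeks. CO F1 and OID F1 males were the sons of these fathers and of females kept on the control diet, and ate only the control diet themselves, so that CO and OID in F1 name the diet of the father. The age of the sons at collection is not given in the sources used here. Sperm was taken from the caudal epididymis and treated with a buffer that lyses somatic cells, and RNA fragments of 30 to 45 nucleotides were cut from a gel that held the pooled, barcoded libraries. The libraries numbered 3 for CO F0, 4 for OID F0, 4 for CO F1 and 4 for OID F1. The labels do not say whether each library came from a separate male, so the p-values below measure the spread between these libraries only.

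MicroRNAs are cut from hairpin precursors by the enzymes Drosha and Dicer, and the mature strand guides Argonaute proteins to messenger RNAs that pair with its seed. The let-7 family, which restrains cell growth and marks differentiated cells, is among the most widely expressed miRNA families in mammals. Transcription is silent in mature sperm, and its small RNA is mostly tRNA fragments and miRNAs that remain from the testis or are acquired during passage through the epididymis.

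The family with the most reads among the precursors was let-7, and its mature strands are shown because they share 1 seed. The seed (bases 2 to 8) is in capitals, and the sequences are those of RefSeq on GRCm38.p6.
let-7a-5p: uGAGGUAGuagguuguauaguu
let-7b-5p: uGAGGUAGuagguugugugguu
let-7c-5p: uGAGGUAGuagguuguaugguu
let-7f-5p: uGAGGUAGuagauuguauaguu
let-7g-5p: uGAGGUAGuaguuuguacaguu
miR-98-5p: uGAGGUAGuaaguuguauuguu
The let-7a, let-7b and let-7c strands differ at few bases, so that short reads from these members are hard to tell apart. Each of these strands has 22 bases, fewer than the shortest fragment of 30 nucleotides that was cut from the gel.

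Further mature strands are shown for precursors to which the comparisons below return, again with the seed in capitals.
miR-26a-5p: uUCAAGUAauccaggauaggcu
miR-26b-5p: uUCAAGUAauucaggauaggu
miR-29a-3p: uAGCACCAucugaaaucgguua
miR-30a-5p: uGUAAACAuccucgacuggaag
miR-200c-3p: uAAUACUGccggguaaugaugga
miR-451a: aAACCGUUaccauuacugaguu
miR-677-5p: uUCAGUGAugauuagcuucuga
Among these, miR-26a and miR-26b share the seed UCAAGUA, while the others each have a seed of their own.

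Several mature strands arise from more than 1 hairpin, and the hairpins of let-7a and miR-26a are shown for that reason, with the mature strand in capitals. Mirlet7a-1 lies at chr13:48538179-48538272 on the minus strand, in an exon of the long noncoding RNA 6720427I07Rik. Mirlet7a-2 lies at chr9:41536716-41536811 on the plus strand, in introns of noncoding transcripts. Mir26a-1 lies at chr9:119031796-119031885 on the plus strand in an intron of Ctdspl, and Mir26a-2 at chr10:126995530-126995613 on the plus strand in a part annotated as exon of Ctdsp2, both genes for related phosphatases.
Mirlet7a-1: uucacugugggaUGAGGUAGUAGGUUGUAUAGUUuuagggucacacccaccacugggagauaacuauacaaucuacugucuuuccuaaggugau
Mirlet7a-2: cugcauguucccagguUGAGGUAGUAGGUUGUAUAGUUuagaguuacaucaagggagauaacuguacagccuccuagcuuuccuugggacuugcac
Mir26a-1: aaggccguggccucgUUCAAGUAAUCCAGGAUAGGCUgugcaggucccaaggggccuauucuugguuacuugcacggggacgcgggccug
Mir26a-2: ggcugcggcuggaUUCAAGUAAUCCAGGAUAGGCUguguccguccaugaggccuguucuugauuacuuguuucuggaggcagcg
The 2 hairpins of each pair hold the same mature strand but differ in the loop and in the flanks.

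Some names belong to hairpins that overlap another small RNA gene. Of the 151 names with a position in RefSeq, 4 did so, and the 2 most read of these are shown with the overlapping stretch in capitals. Mir677 lies at chr10:128085286-128085363 on the plus strand in an intron of Atp5b, which encodes the beta subunit of mitochondrial ATP synthase, and 72 of its bases are also annotated as a small nucleolar RNA. Mir1983 lies at chr13:21896918-21897049 on the minus strand, and 94 of its bases are annotated as an isoleucine tRNA gene.
Mir677: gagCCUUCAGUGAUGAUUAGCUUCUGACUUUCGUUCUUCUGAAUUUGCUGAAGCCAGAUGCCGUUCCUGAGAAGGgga
Mir1983: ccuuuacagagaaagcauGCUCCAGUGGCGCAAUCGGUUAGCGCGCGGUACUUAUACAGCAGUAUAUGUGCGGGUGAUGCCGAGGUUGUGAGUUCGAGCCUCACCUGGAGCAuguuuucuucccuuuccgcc
The mir-677 entry held 144 reads and the mir-1983 entry 11 reads. Together, the 4 entries with such an overlap held 164 reads, or 2.90% of all miRNA reads, and reads from either gene cannot be told apart by name.

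The deposited values are reads scaled by 1 amount per library, plus an offset of 0.5. After the offset was subtracted, all 2460 miRNA values were whole multiples of 1 amount per library to within 0.001 reads, which gave back the number of reads in every value. What 1 miRNA read was worth ranged from 0.1000 to 42.8 units of the deposited value between libraries. It was 0.225 to 5.10 times what 1 tRF read was worth in the same library, and miRNA values were therefore never set against tRF values, only reads against reads. By the study's methods, tRF reads are weighted counts in which shared reads enter by their alignment score. How miRNA reads were counted is not given, so the 2 kinds of count may be unlike.

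OID F1 libraries 1 and 2 held the same number of reads for each of the 164 precursors, 275 in all, and differed only in what 1 read was worth, by 2.57 times. In the same libraries, all 47 tRFs and all 4 mature tRNA entries differed, with 1684563 and 4180068 tRF reads. The other 20 pairs of libraries of 1 group differed at 53 or more precursors, and their chi-square ranged from 1.42 to 24.9 per degree of freedom. The miRNA reads of these 2 libraries thus differed by less than the sampling noise and were counted as 1 sample. This left 14 libraries, with 3 in OID F1.

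The 14 libraries held 5650 miRNA reads in all, with a median of 265.5 per library. CO F0 libraries held 256, 176 and 71 miRNA reads. OID F0 libraries held 762, 78, 345 and 251, and CO F1 libraries 1178, 80, 347 and 113. OID F1 libraries held 275 (the pair counted once), 512 and 1206. The ranges of the groups overlapped, and each group but OID F1 had at least 1 library with fewer than 100 miRNA reads, 3 libraries in all. With 3 reads as the limit that a count of 0 allows, a precursor without a read could still make up to 4.23% of the miRNA reads in the library with 71 reads and up to 0.249% in the one with 1206.

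**Figure D1:**
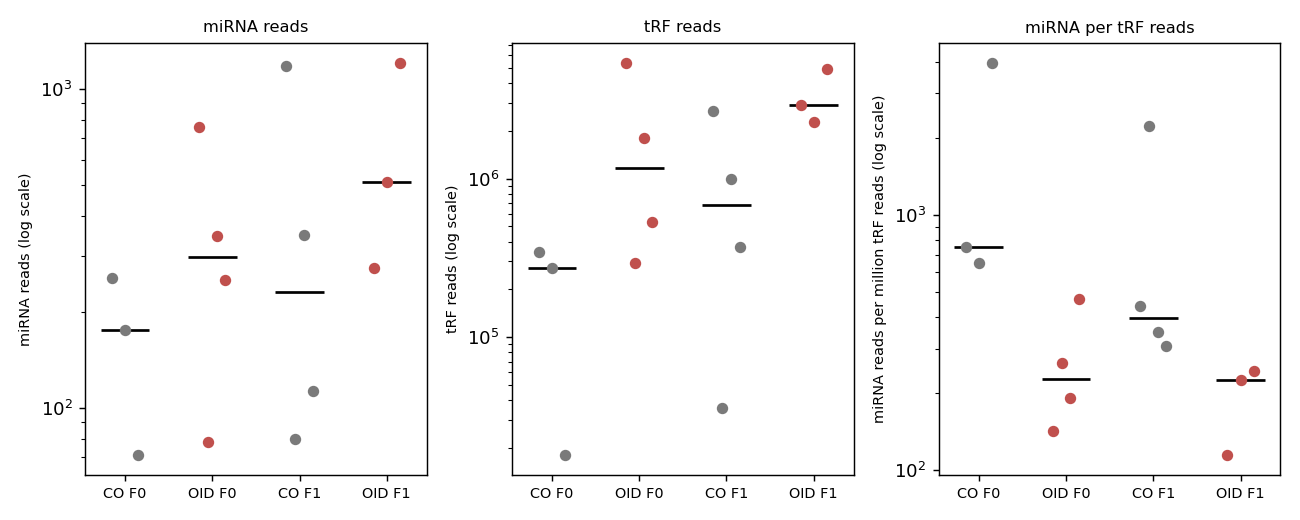
Reads by group on log axes: miRNA reads (left), tRF reads (middle) and miRNA reads per 1000000 tRF reads (right), with 1 point per library (CO grey, OID red; the mean is plotted for the OID F1 pair with the same miRNA reads) and the group median as a bar. The miRNA reads of CO and OID overlap in both generations, while every OID library lies below every CO library of its generation in miRNA reads per 1000000 tRF reads.

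Between 37 and 109 precursors had at least 1 read in a library. At an equal depth of 71 reads, 18.3 to 39.0 precursors would be expected, the lowest number in the OID F1 library with the most reads. Most entries were sparse. Of all values, 59.8% were 0 reads, 31.2% were 1 to 3 reads and 8.97% were more. Over all libraries, 101 of the 164 precursors had fewer than 10 reads and together held 6.87% of the reads, while 63 had 10 or more and 7 had 100 or more. Reads were found in all 14 libraries for 5 precursors and in a single library for 14.

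A trio of names, mir-685, mir-715 and mir-714, held 2982 reads, or 52.8% of all miRNA reads. The most read was mir-685, with 1429 reads. It made up 16.02%, 13.1% and 2.82% of the miRNA reads in CO F0 libraries, and 19.8%, 1.28%, 14.2% and 12.7% in OID F0 libraries. In sons, its share was 20.7%, 3.75%, 26.5% and 19.5% in CO F1 libraries and 29.8%, 23.2% and 47.1% in OID F1 libraries. The lowest shares, 1.28% to 3.75%, were those of the 3 libraries with fewer than 100 miRNA reads, and the highest, 47.1% (95% Wilson interval 44.3% to 49.9%, counting error only), was that of the library with the most.

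The entry mir-715 held 956 reads, or 11.7% ± 8.35 of a library (SD, n = 14), and mir-714 held 597 reads, or 6.97% ± 5.60 (SD, n = 14). Both had reads in 12 of 14 libraries. Next by mean share were mir-145 (4.58%), mir-1944 (4.37%), mir-1940 (2.95%), both hairpins of mir-26a (2.54% each), mir-143 (2.46%) and mir-805 (1.99%). Reads were not divided by precursor length, so these shares describe how the reads were spread over names and not molar levels.

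Of the 164 names, 151 were matched to a mouse miRNA gene of RefSeq. The 13 names without a match, mir-685, mir-715, mir-714, mir-1944, mir-1940 and mir-805 among them, held 3635 reads, or 64.3% of all. No position or sequence is given here for these names. Their share was 46.5%, 44.9% and 2.82% in CO F0 libraries and 77.2%, 5.13%, 56.2% and 53.0% in OID F0 libraries. It was 68.1%, 7.50%, 61.7% and 27.4% in CO F1 libraries and 64.0%, 66.2% and 78.6% in OID F1 libraries. As with mir-685, the lowest values were in the libraries with the fewest miRNA reads, and CO and OID overlapped in both generations.

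**Figure D2:**
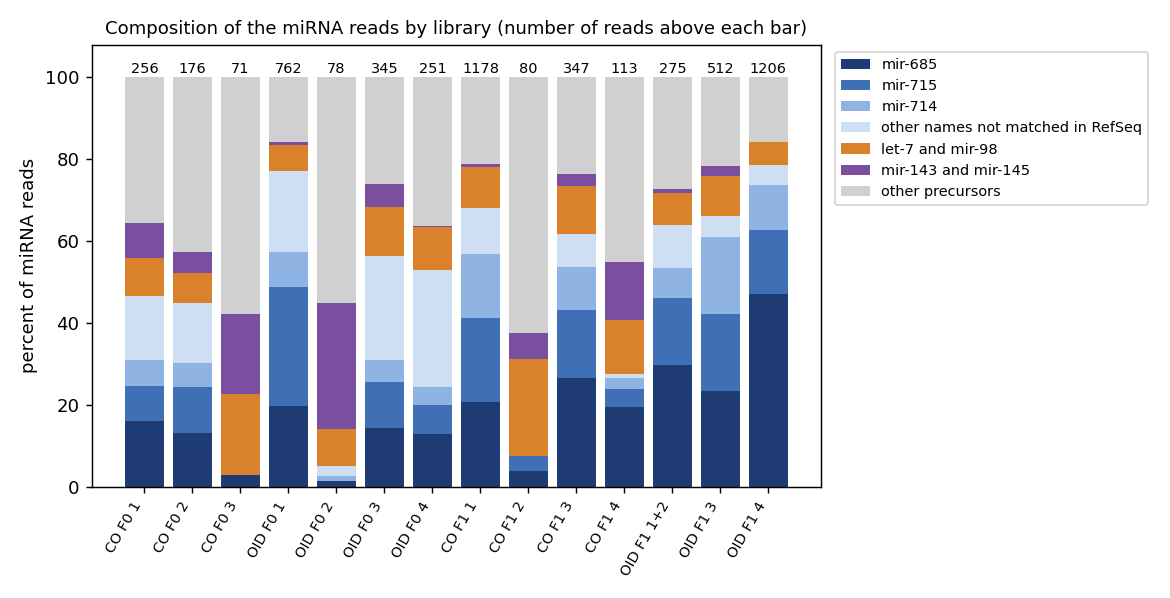
Percent of miRNA reads (vertical axis) held by the leading names in each of 14 libraries, with the number of miRNA reads above each bar. In the libraries with 71, 78 and 80 reads the names without a RefSeq match (blue) hold 2.82% to 7.50%, against up to 78.6% in the library with 1206 reads.

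The let-7 family, mir-98 included, held 505 reads over 12 precursors, or 8.94% of all miRNA reads, the largest share of the 12 families described here. Reads were found in each of the 14 libraries. By member, let-7b had 88 reads, let-7c-2 had 82, let-7c-1 had 71, let-7a-1 had 55 and let-7a-2 had 53. The let-7f hairpins had 47 and 38 reads, and let-7i, let-7d, let-7g and let-7e had 22, 15, 15 and 14. Thus 11 of the 12 members had 10 or more reads, and the most read held 88 of the 505.

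Among 18 pairs of precursors that share a mature name, 7 had equal reads in each of the 14 libraries, among them mir-103-1 and mir-103-2 with 17 reads each and mir-30c-1 and mir-30c-2 with 13 each. The mir-26a hairpins shown above were equal in 13 of 14 libraries, with 65 and 64 reads, and the let-7a hairpins in 10 of 14. The pair that differed in the most libraries was let-7c-1 and let-7c-2, with equal reads in 5 of 14. Counting each mature name once left 146 names and 5296 reads, of which let-7 held 349.

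In fathers, let-7 made up 9.38%, 7.39% and 19.7% of the miRNA reads in CO libraries and 6.43%, 8.97%, 12.2% and 10.4% in OID libraries. The groups overlapped, and the mean of 12.2% ± 6.62 (SD, n = 3) for CO stood against 9.48% ± 2.42 (SD, n = 4) for OID (exact permutation test, two-sided, p = 0.629). The sign of the difference rested on CO F0 library 3, with 71 reads: the difference of OID minus CO was -2.68 points with it and 1.10 points without it. Among reads on matched names only, it was 4.80 points.

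In sons, let-7 made up 10.02%, 23.75%, 11.8% and 13.3% in CO libraries and 7.64%, 9.57% and 5.56% in OID libraries. Every OID library was lower than every CO library, with means of 7.59% ± 2.01 (SD, n = 3) and 14.7% ± 6.17 (SD, n = 4), a difference of -7.13 points (exact permutation test, two-sided, p = 0.0571, the smallest p that 3 against 4 libraries allow). The difference was smaller and the groups overlapped when only reads on matched names were counted. Of those reads, let-7 made up 31.4%, 25.7%, 30.8% and 18.3% in CO F1 and 21.2%, 28.3% and 26.0% in OID F1 (difference -1.38 points, exact permutation p = 0.8).

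**Figure D3:**
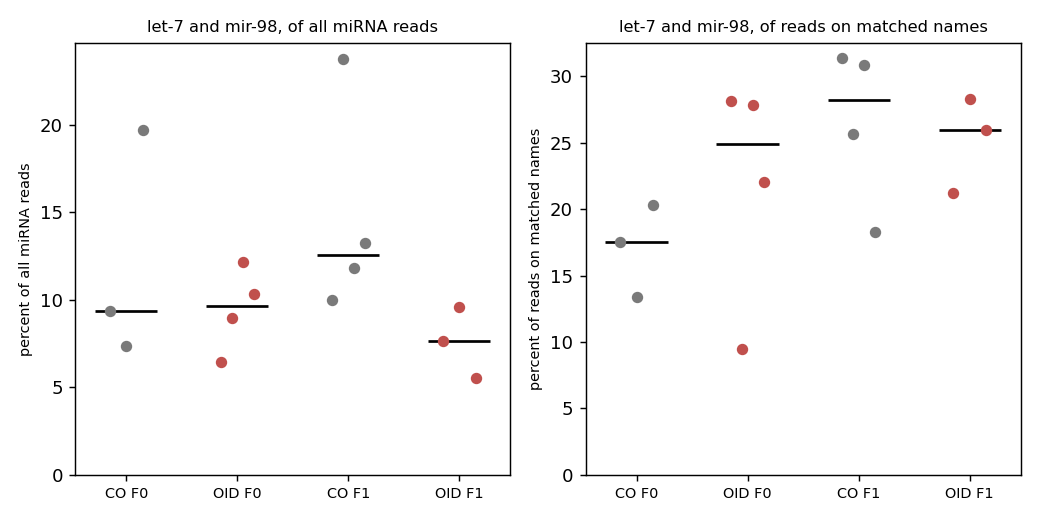
Percent of reads on let-7 and mir-98, out of all miRNA reads (left) and out of reads on names matched to RefSeq (right), with 1 point per library (CO grey, OID red) and the group median as a bar. In F1 the groups are apart on the left (10.02% to 23.75% in CO, 5.56% to 9.57% in OID) and overlap on the right.

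The other families held fewer reads. The mir-26 family held 147, the mir-10 family (with mir-125b-1 as its most read member, 33 reads) 104, and the mir-27/23/24 clusters (mir-24-2, 25 reads) 101. The mir-30 family (mir-30a, 29 reads) held 82 reads, the mir-29 family 66, mir-17/92 (mir-20a, 8 reads) 46, mir-15/16 (mir-16-1, 13 reads) 37, mir-181 (mir-181a-1 and mir-181a-2, 10 reads each) 29 and the pair mir-148 and mir-152 (mir-148a, 20 reads) 28. The share of the mir-26 family ranged from 0.594% to 20% between libraries. Between diets, 0 of 12 family shares passed an adjusted p under 0.05 in either generation (exact permutation tests with Benjamini-Hochberg adjustment, lowest adjusted p = 0.686 in F0 and in F1). Since the smallest unadjusted p was 0.0571, the design could not have reached the threshold. The mir-30 family share, 3.796% ± 1.68 (SD, n = 3) for CO fathers against 1.495% ± 0.641 (SD, n = 4) for OID fathers, stood at that limit (exact permutation p = 0.0571). The groups did not overlap, but only narrowly. The nearest libraries were CO F0 library 1 at 2.34% (6 of 256 reads) and OID F0 library 3 at 2.32% (8 of 345 reads). This share counts both mir-30c hairpins, whose reads were equal in each library, with 1 read per hairpin in both of these nearest libraries. With mir-30c counted once, the groups overlapped. They also overlapped among reads on matched names (6 of 137 reads in CO F0 library 1, 8 of 151 in OID F0 library 3).

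Precursors typical of male germ cells were rare. The family of mir-34 and mir-449, which is known for its role in spermatogenesis and in ciliated cells, held 15 reads over 4 precursors and had none in 7 of 14 libraries. Its most read member, mir-34c, had 10 reads and was at 0 in all F0 libraries, with 3, 0, 1 and 0 reads in CO F1 and 1, 3 and 2 in OID F1. A cluster of testis miRNAs on the X chromosome (mir-465a, 6 reads, and its neighbours) held 28 reads over 8 precursors and was at 0 in 6 libraries. Over the list of 10 germ cell markers, 40 reads were found, from 0% to 2.79% of a library, and the sperm label could therefore not be checked against these precursors at this depth.

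Markers of other cell types were read in the same libraries. The muscle markers mir-143 and mir-145, which are made from 1 cluster and mark smooth muscle, gave most of the 157 reads on the 5 muscle precursors, which made up 0.0829% to 30.8% of a library. The epithelial list (5 of 5 members read, mir-200c with 40 reads the most) held 102 reads and was read in every library, from 0.8292% to 7.69%. The blood list held 38 reads over 6 precursors, of which mir-451, a miRNA of red blood cells, held 19. The endothelial marker mir-126 held 6 reads, and the liver marker mir-122 held 5 and was at 0 in 12 libraries. In whole samples, fewer cells of a type and less RNA per cell cannot be told apart.

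Among these markers, mir-145 varied most. It had 20, 0 and 11 reads in CO F0 libraries and 1, 16, 12 and 1 in OID F0 libraries. In sons, it had 0, 1, 8 and 12 reads in CO F1 libraries and 0, 11 and 0 in OID F1 libraries. The 2 libraries with the most miRNA reads had none, which allows a share of up to 0.255% of 1178 reads and 0.249% of 1206 reads, while OID F0 library 2, with 78 miRNA reads, gave 20.5% (95% Wilson interval 13.0% to 30.8%). Muscle markers as a group made up 11.1% ± 7.63 (SD, n = 3) of the reads of CO fathers and 9.33% ± 14.5 (SD, n = 4) of those of OID fathers. For the sons, the shares were 6.16% ± 5.79 (SD, n = 4) with CO fathers and 1.61% ± 1.43 (SD, n = 3) with OID fathers. These ranges overlapped in F0 and in F1, and their part in the results below was not tested.

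The number of miRNA reads relative to tRF reads was lower in every OID library than in any CO library of its generation. In fathers, miRNA reads per 1000000 tRF reads were 749, 648 and 3952 in CO and 142, 264, 191 and 471 in OID libraries. In sons, they were 440.3, 2242, 349 and 307 in CO and 115 (the mean of the pair), 226 and 245 in OID libraries. The 115 is the mean of 163 and 65.8, which set the same 275 miRNA reads against different tRF reads. Which library of the pair these miRNA reads belong to is not known. The gap between the nearest libraries was smaller than the spread among CO libraries in both generations. As a percent of miRNA and tRF reads together, miRNA reads of fathers made up 0.178% ± 0.187 (SD, n = 3) with CO, against 0.0267% ± 0.0145 (SD, n = 4) with OID (exact permutation test, two-sided, p = 0.0571). For sons the values were 0.0833% ± 0.0938 (SD, n = 4) with CO, against 0.0195% ± 0.00705 (SD, n = 3) with OID (exact permutation p = 0.0571). Both values are the smallest p that the design allows.

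The 2 libraries with the highest values, CO F0 library 3 and CO F1 library 2, also had the fewest tRF reads, 17966 and 35677. Without each of them the difference of OID minus CO fell from -0.151 to -0.0431 points in F0 and from -0.0638 to -0.0170 points in F1. The tRF reads, which are the denominator, had a median of 271812 in CO F0 and 1167991 in OID F0. In F1 the medians were 680741.5 in CO and 3221587 in OID. The OID F1 median keeps the pair of libraries with the same miRNA reads apart, unlike the ratios above. The part of the tRF reads in the result was not tested.

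How concentrated the reads were was described by the share of the leading precursors. The 5 most read precursors of each library held 44.1%, 44.9% and 35.2% of the miRNA reads in CO F0 libraries and 71.4%, 46.2%, 47.5% and 47.0% in OID F0 libraries. The groups did not overlap (41.4% ± 5.38, SD, n = 3, against 53.0% ± 12.3, SD, n = 4), at the smallest p the design allows (exact permutation p = 0.0571). Without OID F0 library 1 the difference fell from 11.6 to 5.49 points. In F1 the 5 leading precursors held 65.3%, 35%, 59.7% and 41.6% in CO and 61.8%, 66.0% and 78.4% in OID libraries, which overlapped (exact permutation p = 0.114). Among reads on matched names, the F0 groups overlapped and their difference was smaller. In F1 the difference of OID minus CO turned from 18.4 to -8.61 points among those reads.

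Single precursors were compared between diets on log2 of the deposited value + 1 with limma, over entries with at least 10 reads in the libraries compared. On this scale the fold change of an entry with low values comes out too small. In fathers, 30 precursors could be tested, of which 11 had a higher and 19 a lower mean log2 value in OID. Of these, 0 passed an adjusted p under 0.05 (lowest limma adjusted p = 0.733, 0.0% of the 31 entries tested). At an unadjusted p under 0.05 the count was also 0. In sons, 40 precursors could be tested, of which 16 were higher and 24 lower, and 0 passed (lowest adjusted p = 0.435; 0.0% of 44 entries), with 1 at an unadjusted p under 0.05 (2.27%).

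The median log2 difference over the tested precursors was -0.82 in F0 and -0.20 in F1 on the deposited scale. On reads per 1000000 miRNA reads it was 1.02 in F0 and 1.07 in F1. With limma-voom on the reads it was 0.006 in F0 and -0.84 in F1, the latter of the same sign as on the deposited scale. The direction of the median thus depended on the scaling. On log2 of reads per 1000000 miRNA reads, a count of 0 lies far below a count of 1, so that zeros weigh heavily there. The deposited scale gave much weight to CO F0 library 3, in which 1 read was worth 42.8 units, and its 71 reads summed to 3036 units while the 1206 reads of OID F1 library 4 summed to 139. Group means of deposited values in CO F0 were accordingly set by few reads: mir-451 had a mean of 29.0 ± 49.4 units (SD, n = 3) from 0, 0 and 2 reads.

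The lowest p-values in fathers were those of let-7a-2, mir-30a and let-7a-1. The let-7a-2 hairpin had 5, 2 and 3 reads in CO F0 and 0, 1, 2 and 2 in OID F0 libraries, groups that overlapped in reads (log2 difference -2.25, SE 1.33, limma adjusted p = 0.733). For mir-30a, 2, 4 and 2 reads stood against 2, 1, 2 and 0 (log2 difference -2.21, SE 1.32, limma adjusted p = 0.733). Relative to the median of all precursors tested, these log2 differences were -1.43 and -1.40.

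In sons, the lowest p-values were those of mir-451, mir-1944 and let-7a-2. The red blood cell miRNA mir-451 had 3, 1, 6 and 2 reads in CO F1 and 0, 1 and 3 in OID F1 libraries (log2 difference -1.17, SE 0.49, limma adjusted p = 0.435). The entry mir-1944 had 55, 0, 5 and 0 reads in CO F1 and 16, 13 and 40 in OID F1 libraries (log2 difference 1.21, SE 0.56, limma adjusted p = 0.435). Read as shares, mir-1944 made up 4.67%, 0%, 1.44% and 0% of CO F1 and 5.82%, 2.54% and 3.32% of OID F1 reads, which overlapped. For let-7a-2, 10, 5, 7 and 3 reads stood against 1, 5 and 7 (log2 difference -1.48, SE 0.73, limma adjusted p = 0.435).

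Whether the diet difference itself differed between generations was tested as an interaction over 63 precursors. None of them passed (0.0% of 67 entries, lowest limma adjusted p = 0.983), and 1 was at an unadjusted p under 0.05 (1.49%). This was mir-685, the most read entry, with mean deposited values for fathers of 67.8 ± 15.8 (CO, SD, n = 3) against 32.5 ± 12.2 (OID, SD, n = 4), and for sons of 30.1 ± 18.3 (CO, SD, n = 4) against 42.9 ± 20.7 (OID, SD, n = 3) (interaction on the log2 scale 1.67, SE 0.73, limma adjusted p = 0.983). As a share of miRNA reads, mir-685 was not lower in OID fathers (10.6% ± 6.93, CO, SD, n = 3, against 12.0% ± 7.78, OID, SD, n = 4). Its interaction did not pass the unadjusted threshold on reads per 1000000 miRNA reads (limma unadjusted p = 0.7) or with limma-voom on the reads (unadjusted p = 0.462). The next on the deposited scale were mir-101a (1.87, SE 1.12) and mir-191 (1.35, SE 0.82).

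Sons were also set against fathers, with diet as a term. Of 63 precursors tested on the deposited scale, 57 had a negative and 6 a positive log2 difference of F1 minus F0. The median log2 difference was -0.75. On reads per 1000000 miRNA reads the split was 26 lower and 37 higher, and on limma-voom of the reads 43 and 20, so that the split depended on the scale. No precursor passed an adjusted p under 0.05 (0.0% of 67 entries, lowest limma adjusted p = 0.136), and 7 were at an unadjusted p under 0.05, all lower in sons (10.4%). These were let-7b, mir-29a, mir-1944, mir-1940, mir-805, mir-27b and mir-469. Without CO F0 library 3, 4 of them passed the adjusted threshold (mir-1940, mir-1944, mir-29a and mir-805, 5.97% of 67 entries), and without CO F0 library 2, 1 did (let-7b, 1.52% of 66). With a pseudocount of 0.1, 2 passed (let-7b and mir-29a, 2.99%), and with log2 of the miRNA reads as a covariate, 2 (mir-1940 and mir-1944, 2.99%).

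The lowest p was that of let-7b, with 5, 1 and 1 reads in CO F0, 15, 3, 14 and 8 in OID F0, 14, 0, 5 and 1 in CO F1 and 5, 6 and 10 in OID F1 libraries (log2 difference of F1 minus F0 -2.14, SE 0.56, limma adjusted p = 0.136). Relative to the median of all precursors tested, let-7b differed by -1.39, mir-29a by -1.71 and mir-1944 by -1.06. As a share of miRNA reads, let-7b overlapped between generations, with 0.568% to 4.06% in the 5 F0 libraries and 0.8292% to 1.82% in the 6 F1 libraries that held at least 100 miRNA reads.

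In libraries with at least 100 miRNA reads, a limit set after the values had been seen, 56 of 61 precursors were lower in F1. The median log2 difference of that fit was -0.41. In it, 7 precursors passed an adjusted p under 0.05, all lower in F1 (10.8% of 65 entries). They were mir-1940, mir-1944, mir-469, mir-677, mir-805, let-7b and mir-29a. Of these, mir-1940, mir-1944, mir-469 and mir-805 have no RefSeq match, and mir-677 has a snoRNA overlap. Over all libraries, 7 of the 63 precursors with at least 10 reads had no match, and names without a match held 64.3% of the reads. The smallest p was that of mir-1940 (log2 difference -3.08, SE 0.35, limma adjusted p = 3.8e-05). It had 14, 17 and 0 reads in CO F0, 51, 0, 19 and 18 in OID F0, 31, 0, 5 and 0 in CO F1 and 4, 6 and 2 in OID F1 libraries.

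As a percent of miRNA reads, which does not depend on the deposited scale, mir-1940 made up 5.47% to 9.66% of the 5 F0 libraries with at least 100 reads and 0% to 2.63% of the 6 F1 libraries. The generations did not overlap, and this was so for 1 of the 63 precursors with at least 10 reads (1.59%). In the 3 libraries with fewer than 100 miRNA reads, which belong to both generations, mir-1940 had 0 reads. This allows up to 4.23% in CO F0 library 3, 3.85% in OID F0 library 2 and 3.75% in CO F1 library 2. The limits of these F0 libraries lie below the 5.47% to 9.66% of the deeper F0 libraries. The separation of generations therefore holds only with these libraries left out. Over all 14 libraries its log2 difference was -2.07 (SE 0.76, limma adjusted p = 0.243). For mir-1944 the shares were 3.41% to 15.5% in F0 and 0% to 5.82% in F1 and overlapped. The name mir-1940 was singled out after its values had been seen.

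**Figure D4:**
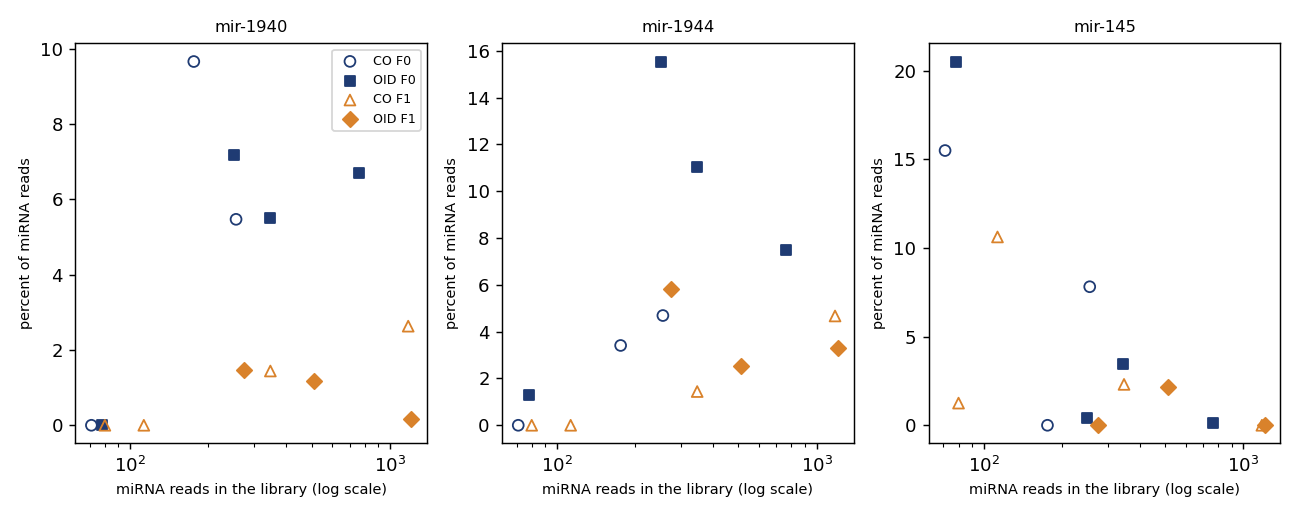
Percent of miRNA reads (vertical axes) on mir-1940, mir-1944 and mir-145 against the number of miRNA reads in the library (horizontal axes, log scale), with 1 point per library, F0 in blue and F1 in orange, CO open and OID filled. Above 100 reads mir-1940 lies between 5.47% and 9.66% in F0 and between 0% and 2.63% in F1, and mir-145 reaches its highest share, 20.5%, in a library with 78 reads.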

How the data were processed

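Small RNA libraries of caudal sperm were analysed, 15 in all. According to the study's methods, Trimmomatic removed adapters and low-quality bases before alignment to the mouse genome (GRCm38/mm10). The submitters' processing notes name Bowtie2 2.3.4.1 and DESeq2, and how miRNA entries were counted is not given in the sources used here. The deposited values are a normalized signal made by the authors, reads scaled by 1 amount per library plus 0.5.

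Reads were recovered as described in the results. Intervals are 95% Wilson intervals and the floor is 3 reads. Both take in counting error alone, because PCR copies of 1 molecule cannot be recognised without molecular identifiers. Entries with fewer than 10 reads over the libraries of a fit were left out. Groups were compared with limma 3.58.1 in R 4.3.3 on log2(value + 1), with Benjamini-Hochberg adjustment over all miRNA and mature tRNA entries tested and a threshold of 0.05. For single shares, exact permutation tests (two-sided, scipy 1.17.1) were used. The methods were tested on simulated data. For limma, the simulated reads carried counting error only, while these libraries differed by more than that. The simulation therefore does not show how often limma would miss or falsely call a difference here. The OID F1 libraries 1 and 2 entered as their mean.

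Groups and replicate numbers came from the sample titles. Members and lists were chosen with earlier results of these data known. Named precursors are the 10 with the highest mean share, up to 5 called per comparison or else the 3 with the lowest p, the let-7 members and the most read member of each family. Sequences and positions are from RefSeq on GRCm38.p6. Alternatives were other pseudocounts, filters, scalings and models, the replicate number as a block, each library left out, and, added after the data were seen, names matched to RefSeq only, copies counted once, libraries with at least 100 miRNA reads, the libraries with the same reads left out or kept apart, and miRNA entries only. Figures were drawn with matplotlib 3.10.9 in Python 3.11.15.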

Additional observations from a re-analysis of the deposited data

Results flagged for a closer look

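A library that lay far from its group was looked for in 34 sets of 4 libraries and found in 3, each time on the high side. About 1.7 would be expected if chance gave about 1 in 20. That rate was not checked for skewed shares from few reads, in sets that hold the same libraries. OID F0 library 1 held 71.4% of its miRNA reads in its 5 most read precursors, while the other OID F0 libraries held 46.2% to 47.5%. CO F1 library 2 had a miRNA share of 0.224% of miRNA and tRF reads, while the other CO F1 libraries had 0.0307% to 0.0440%. In OID F0 library 2, mir-145 made up 20.5% of the miRNA reads, against 0.131% to 3.48% in the other OID F0 libraries.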

How the results depend on the processing

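Calls between diets and for the interaction were 0 in each fit run with adjusted p-values, the fits without 1 library included. With the unadjusted p, 1 precursor passed in F1 and 1 for the interaction. For sons against fathers, the count of 0 became 7 with the unadjusted p, 2 with a pseudocount of 0.1, 2 with log2 of the miRNA reads as a covariate and 7 in libraries with at least 100 miRNA reads. It ranged from 0 to 4 when each library was left out, with 4 without CO F0 library 3 and 1 without CO F0 library 2, and the cause was not tested. With names matched to RefSeq only, the let-7 difference was 4.80 points in F0 and -1.38 in F1. On those names the 5 leading precursors differed by -8.61 points in F1, and their shares overlapped between diets in F0. Leaving out each library gave let-7 differences of -5.06 to 1.10 points in F0 and -8.69 to -4.11 in F1, and differences of 5.49 to 13.9 (F0) and 13.2 to 23.3 (F1) for the 5 leading precursors. With the replicate number as a block, 0 precursors passed in each of the 4 fits (lowest limma adjusted p = 0.249, for sons against fathers). Libraries with the same number did not deviate together in every pair (correlations of 0.417, -0.368 and -0.258 over 63 precursors in F0), so the numbers were not taken as pairs. The planned edgeR, DESeq2 and TMM alternatives were not run, and limma-voom was the only count model run on the recovered reads. A minimum of 3 reads in every library could be applied in F1 only, and a minimum of 1000 miRNA reads left no F0 library and 1 library per group in F1. Depth limits every statement on single precursors: 101 of 164 had fewer than 10 reads over 14 libraries.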
